A study of Homo sapiens with 6 samples.

Results

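CXCL1, CXCL2, CXCL3, CXCL5, CXCL6 and CXCL8 are the 6 neutrophil-attracting CXC chemokine genes described here, out of 58219 gene identifiers counted. They were chosen by name, as ligands of the receptor CXCR2 encoded in a cluster on chromosome 4, and all 6 had enough reads to be tested. RNA was sequenced in SNU-387, an established human liver cancer line labelled as a pleomorphic hepatocellular carcinoma. Knockdown cells stably carried a short hairpin RNA against the tyrosine kinase gene YES1 (shYES1, n = 3), and the control cells carried a non-target hairpin (shNT, n = 3). All samples come from this line alone, both groups express a hairpin, and the labels name neither the hairpin's sequence nor how many hairpins were used. Nothing in the labels says that replicates were separate cultures, so the p-values cover only the spread among these libraries, which may be technical.

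Chemokines are small secreted proteins that steer migrating cells. Those of this group carry a glutamate-leucine-arginine motif before their CXC cysteines, bind CXCR2 on neutrophils, and are held on cell surfaces by heparan sulfate. CXCL6 and CXCL8 also activate CXCR1. Their genes are classic targets of NF-kB after interleukin-1 or tumour necrosis factor, and their short-lived mRNAs carry AU-rich elements in the 3' UTR. Cancer cells, hepatocellular carcinoma included, can secrete them.

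The libraries held 11290889 to 18944148 reads in shYES1 and 12825919 to 16388822 in shNT. YES1, the targeted gene, stood at 42.9, 43.3 and 46.0 CPM in the shYES1 libraries, against 178, 181 and 179.95 CPM in the shNT libraries, where CPM is the normalised read count at a common library size. The shYES1 cells thus kept 24.6% of the shNT level (log2 fold change -2.02, SE 0.0371, edgeR adjusted p = 7.93e-40). Of 14239 tested genes, 65.3% were called at an edgeR adjusted p under 0.05. Higher calls in shYES1 were 32.5% of tested genes and lower calls 32.8%. When libraries were scaled by size alone, 5799 genes were higher and 3762 lower, against 4623 and 4676 with the scaling used here. Of 12 hepatocyte markers 8, albumin (ALB) and HNF4A among them, stayed under 1 CPM, and the list summed to 1089 to 1112 CPM in shYES1 and 783 to 796 CPM in shNT, nearly all of it from the keratin genes KRT8 and KRT18. The 8 mesenchymal markers, all above 1 CPM, summed to 6806 to 6932 CPM in shYES1 and 6144 to 6480 CPM in shNT, mostly from COL1A1 and COL1A2. Of these 8, 4 were called higher and 4 lower (median -0.21). The 14 leukocyte markers summed to 71.0 to 74.6 CPM in shYES1 and 94.5 to 99.0 CPM in shNT. Most of that came from S100A8, S100A9 and CD14, while 10 of the 14 were under 1 CPM and the neutrophil marker FCGR3B and the T cell marker CD3E were at 0. The part of these markers in the chemokine changes was not tested.

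All 6 chemokine genes fell in shYES1 cells, by 2.91-fold to 10.3-fold, where 32.8% of all tested genes were called lower. They fell in 3 steps of a pair each: CXCL5 with CXCL6, CXCL1 with CXCL8, and CXCL2 with CXCL3. The median log2 fold change of the 6 was -2.61, beside -0.00469 over all tested genes. For each of the 6 the highest shYES1 value was below the lowest shNT value, which held for 34.0% of tested genes. Tested against a minimum change of 2-fold, all 6 were still called lower, against 3.55% of tested genes. In bulk RNA, fewer expressing cells and less RNA per cell cannot be told apart.

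CXCL5 (ENSG00000163735.6, GRCh38 chromosome 4, 73995642 to 73998779, minus strand) encodes a neutrophil attractant also known as ENA-78. It stood at 149, 146 and 144 CPM in the 3 shYES1 libraries, against 1499, 1528 and 1490.05 CPM in the 3 shNT libraries. The libraries of each group lay close together and the groups were about 10.3-fold apart. This is a log2 fold change of -3.37 (SE 0.0275, edgeR adjusted p = 6.35e-54), and CXCL5 ranked 16 from the lowest of all tested genes. CXCL6 (ENSG00000124875.9, 73836497 to 73849064, plus strand), its closest relative and also called GCP-2, gave 4.81, 4.11 and 4.04 CPM in shYES1, against 44.4, 43.9 and 45.4 CPM in shNT. Its shYES1 values rest on 48 to 79 reads per library, and the fall of 3.37 on the log2 scale (log2 fold change -3.37, SE 0.0815, edgeR adjusted p = 5.28e-35) was close to that of CXCL5. An annotated pseudogene, PPBPP1, shares 94 exon bases with CXCL6 on its strand, where reads can be lost as ambiguous.

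CXCL1 (ENSG00000163739.4, 73869393 to 73871242, plus strand), first described as the melanoma growth factor GRO-alpha, stood at 74.1, 80.2 and 79.1 CPM in shYES1, against 467, 487 and 478 CPM in shNT. No library of either group came near the other group. CXCL1 was 6.15-fold lower (log2 fold change -2.62, SE 0.0315, edgeR adjusted p = 4.54e-47). CXCL8 (ENSG00000169429.10, 73740506 to 73743716, plus strand), which encodes interleukin-8, stood at 41.5, 47.0 and 44.0 CPM in shYES1, against 262, 272 and 269 CPM in shNT. Here too the groups were far apart, by 6.09-fold (log2 fold change -2.61, SE 0.0368, edgeR adjusted p = 1.83e-44).

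CXCL2 (ENSG00000081041.8, 74097035 to 74099293, minus strand) and CXCL3 (ENSG00000163734.4, 74036589 to 74038807, minus strand) encode GRO-beta and GRO-gamma, near copies of the CXCL1 protein. CXCL2 stood at 9.92, 10.01 and 9.96 CPM in shYES1, against 30.6, 26.8 and 29.5 CPM in shNT. CXCL3 stood at 9.44, 9.92 and 10.5 CPM in shYES1, against 31.2, 27.2 and 32.3 CPM in shNT. These were the smallest falls of the 6. The log2 fold change was -1.54 for CXCL2 (SE 0.0762, edgeR adjusted p = 8.62e-23) and -1.60 for CXCL3 (SE 0.0783, edgeR adjusted p = 5.78e-23), 2.91-fold and 3.03-fold.

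**Figure D1:**
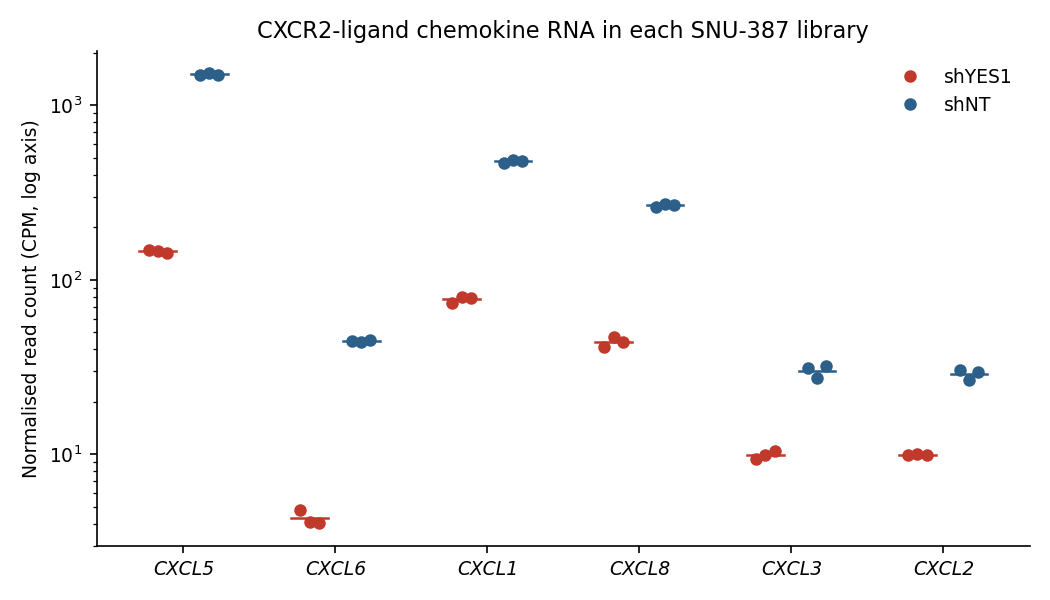
Normalised read count (CPM, log axis) of the 6 chemokine genes in each library, with 3 points and a line at the mean for shYES1 (red, left) and for shNT (blue, right). The groups do not overlap for any gene, and the gap narrows from about 10.3-fold for CXCL5 to 2.91-fold for CXCL2.

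Per length, the order of the genes was not the same in both groups. Levels are given as RPKM, CPM per kilobase of merged exons. In shYES1 cells CXCL1 stood at 60.04 ± 2.497 RPKM and CXCL5 at 57.5 ± 1.06, a difference within the spread, followed by CXCL8 at 19.4 ± 1.22. CXCL2 (6.64 ± 0.0288), CXCL3 (4.49 ± 0.245) and CXCL6 (1.98 ± 0.196) came last in shYES1 (SD, n = 3). In shNT cells CXCL5 led with 593 ± 7.89 RPKM, ahead of CXCL1 with 368 ± 7.63 and CXCL8 with 118 ± 2.11. CXCL6 (20.4 ± 0.342) and CXCL2 (19.3 ± 1.32) did not differ beyond their spread in shNT, and CXCL3 was lowest at 13.6 ± 1.19. By this measure CXCL5 ranked 603rd in shYES1 and 35th in shNT among 14205 tested genes, and CXCL1 570th in shYES1 and 55th in shNT.

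The length used matters for the lower places. Per kilobase of the coding transcript, which leaves out exon bases found only in other annotated transcripts, CXCL3 stood at 9.27 ± 0.507 RPKM in shYES1 and 28.1 ± 2.45 in shNT, above CXCL2 at 8.18 ± 0.0354 in shYES1 and 23.8 ± 1.62 in shNT. On that scale CXCL1 led CXCL5 in shYES1, with 70.9 ± 2.95 against 57.5 ± 1.06 RPKM, while CXCL5 led CXCL1 in shNT, with 593 ± 7.89 against 435 ± 9.01 RPKM.

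The total of the 6 genes fell, and its makeup shifted. Together they took 0.0297% to 0.0307% of all gene reads in shYES1 libraries, against 0.225% to 0.231% in shNT libraries. Per kilobase of coding transcript, CXCL5 made up 33.0 ± 1.24% of the 6 in shYES1 and 47.0 ± 0.360% in shNT, and CXCL6 1.44 ± 0.173% in shYES1 and 2.05 ± 0.0494% in shNT. CXCL1 made up 40.7 ± 0.867% in shYES1 and 34.5 ± 0.343% in shNT. The share of CXCL8 was 14.9 ± 0.611% in shYES1 and 12.4 ± 0.102% in shNT. CXCL2 took 4.69 ± 0.0833% in shYES1 and 1.88 ± 0.149% in shNT, and CXCL3 5.31 ± 0.250% in shYES1 and 2.23 ± 0.214% in shNT (SD, n = 3).

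**Figure D2:**
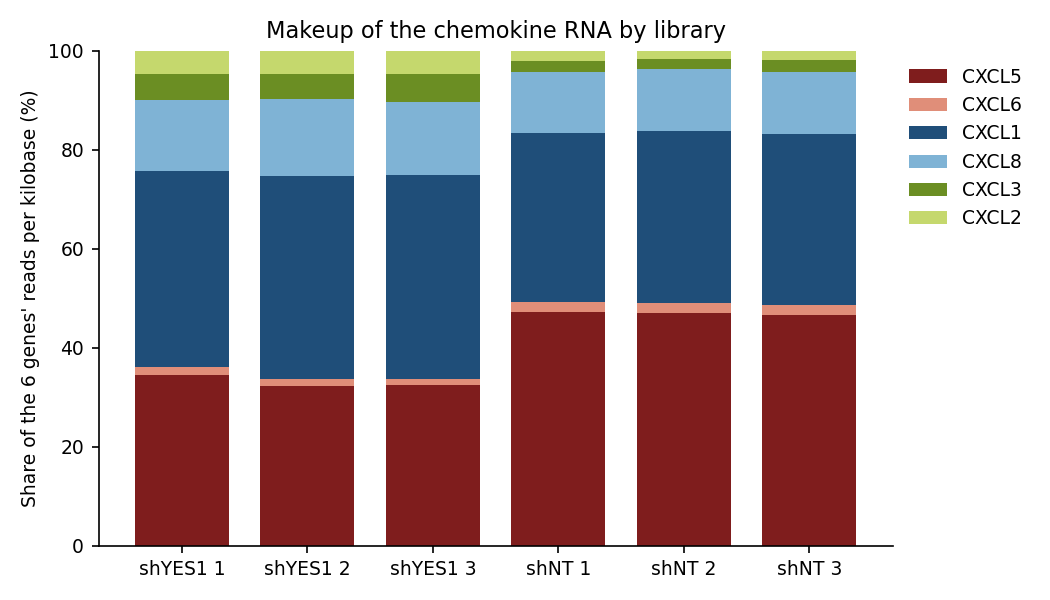
Share (%) of each gene in the summed reads per kilobase of coding transcript of the 6 chemokines, 1 bar per library, shYES1 left and shNT right. The CXCL5 share is about 33.0% in shYES1 and 47.0% in shNT, and the shares of CXCL1, CXCL8, CXCL2 and CXCL3 are larger in shYES1.

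Whether members changed by different amounts was tested on the log2 ratio of each pair within a library, which does not depend on library scaling. For 12 of the 15 pairs the ratios of the 2 groups did not overlap, where 64.8% of all pairs among 14228 tested genes with reads in every library did not, so such parting is common in these data. Each of these gave p = 0.1 in the exact two-sided permutation test, the smallest p this test can give with 3 against 3 libraries (adjusted p over 15 pairs 0.125), so the test cannot reach 0.05 here. The 3 pairs whose ratios overlapped were those named above. The CXCL5 to CXCL6 log2 ratio was 5.08 ± 0.114 in shYES1 and 5.08 ± 0.0422 in shNT, a difference of 0.00603 (SE 0.0703, exact permutation p = 1). The CXCL1 to CXCL8 log2 ratio was 0.818 ± 0.0415 in shYES1 and 0.835 ± 0.00555 in shNT, a difference of -0.0173 (SE 0.0242, exact permutation p = 0.9). The CXCL2 to CXCL3 log2 ratio was 0.00194 ± 0.0764 in shYES1 and -0.0593 ± 0.0589 in shNT, a difference of 0.0613 (SE 0.0557, exact permutation p = 0.4).

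The steps were named from the changes themselves, so ratios of pairs within and between steps describe them and do not test them. CXCL2 against CXCL5 gave a log2 ratio of -3.87 ± 0.0306 in shYES1 and -5.70 ± 0.117 in shNT, a difference of 1.83 (SE 0.0698). CXCL1 against CXCL5 gave -0.909 ± 0.0843 in shYES1 and -1.66 ± 0.0216 in shNT, a difference of 0.748 (SE 0.0503). CXCL1 against CXCL2 gave 2.96 ± 0.0550 in shYES1 and 4.04 ± 0.128 in shNT, a difference of -1.08 (SE 0.0807).

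Sequence likeness followed these steps for some pairs and not for others. Coding bases were 94.4% identical between CXCL2 and CXCL3 and 87.4% between CXCL5 and CXCL6, the pairs with little difference in change. CXCL1, however, was 93.5% identical to CXCL2 and 90.7% to CXCL3, from which its change differed by 1.08 and 1.02 on the log2 scale. It was 64.4% identical to CXCL8, from which its change differed by 0.0173. The other 10 pairs were between 59.6% and 68.4% identical.

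**Figure D3:**
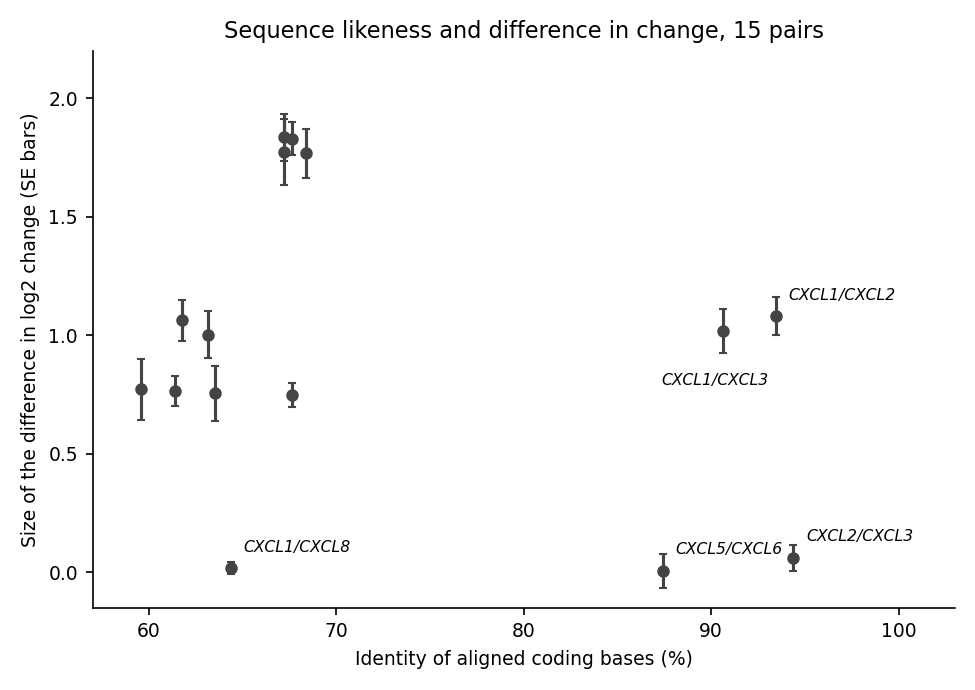
Identity of aligned coding bases (%, x axis) and size of the difference in log2 change (y axis, bars are SE over 3 libraries per group) for the 15 pairs of the 6 chemokine genes. CXCL1 lies near 1 on the y axis with its near copies CXCL2 and CXCL3, and near 0 with the more distant CXCL8.

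Shared sequence can cost reads, since the files list reads that map to several places apart from those counted for genes. Of all 75-base windows of the annotated transcripts, 7.07% of CXCL2 windows and 4.57% of CXCL3 windows occurred exactly in another gene's transcripts, mostly in each other, and 0.245% of CXCL1 windows did. The share was 0.122% for CXCL5, 0.996% for CXCL6 (all in PPBPP1) and 0% for CXCL8. At 50 bases CXCL2 reached 12.5%, and at 100 bases CXCL1, CXCL5, CXCL6 and CXCL8 were at 0%. Intergenic copies were not searched. Reads on the opposite strand made up 0% to 2.85% of a member's stranded reads in shYES1 and 0.270% to 1.41% in shNT.

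The promoters of the 6 genes are shown because the genes fell together and share a sequence element there. Each stretch below is 110 bases from RefSeq (GRCh38.p14), 5' to 3' on the strand of the gene. The first capitals mark the NF-kB core GGAATTTCC and the second the letters ATAAA of a TATA-like element.
CXCL5, chr4:73998678-73998787, minus strand: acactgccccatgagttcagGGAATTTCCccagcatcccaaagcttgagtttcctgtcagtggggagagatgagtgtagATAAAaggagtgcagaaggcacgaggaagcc
CXCL6, chr4:73836569-73836678, plus strand: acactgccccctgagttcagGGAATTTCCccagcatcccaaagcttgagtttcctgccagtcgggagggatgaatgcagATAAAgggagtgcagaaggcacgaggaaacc
CXCL1, chr4:73869295-73869404, plus strand: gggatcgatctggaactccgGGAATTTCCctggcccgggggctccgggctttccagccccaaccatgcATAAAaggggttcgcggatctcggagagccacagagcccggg
CXCL8, chr4:73740458-73740567, plus strand: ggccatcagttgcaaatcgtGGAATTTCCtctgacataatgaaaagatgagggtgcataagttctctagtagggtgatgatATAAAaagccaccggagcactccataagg
CXCL2, chr4:74099183-74099292, minus strand: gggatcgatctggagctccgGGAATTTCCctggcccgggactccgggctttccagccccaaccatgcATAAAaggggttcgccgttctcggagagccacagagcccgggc
CXCL3, chr4:74038678-74038787, minus strand: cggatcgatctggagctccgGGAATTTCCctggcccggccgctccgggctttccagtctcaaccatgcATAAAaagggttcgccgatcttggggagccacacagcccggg

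The core GGAATTTCC, searched on both strands of the 300 bases around each start (250 before and 50 after), was found once in each of the 6 promoters, always on the gene's strand. It began 77 or 78 bases before the start in CXCL1, CXCL2 and CXCL3 and 89 to 91 bases before it in CXCL5, CXCL6 and CXCL8. Of 27305 promoters 0.472% held it. The base before the core was T in CXCL8 and G in the other promoters. ATAAA on the gene's strand, starting 40 to 20 bases before the start, was found in all 6 and in 4.95% of promoters. Over aligned bases, with gaps left out, promoters were 84.2% identical between CXCL5 and CXCL6 and 83.6% to 87.0% within CXCL1, CXCL2 and CXCL3. They were at most 58.5% identical between CXCL8 and any other member. The aligned part ran from 258 bases (CXCL3 with CXCL8) to 298 (CXCL5 with CXCL6) of the 300.

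Exact matches to other motifs differed between the promoters. The AP-1 letters TGANTCA, which read the same on both strands, were found in CXCL8 alone of the 6 and in 7.76% of all promoters. The SP1 letters GGGCGG on either strand were found in CXCL1, CXCL3 and CXCL6 and in 44.6% of promoters. TTGCNNAA, a C/EBP form, was found in CXCL2 and in 10.6%. Only exact matches were counted, so ttgcaaat just before the NF-kB core of CXCL8, which departs from these letters, was not. No match named here overlapped another. Outside the 6 chemokines, 42 tested genes held GGAATTTCC in the promoter, of which 13 were called higher and 18 lower, with a median log2 fold change of 0.02, beside 0.01 for all tested genes with a promoter entry. The TATA-like ATAAA was held by 300 tested genes outside the 6. Of these 87 were called higher and 127 lower, with a median of -0.14. Beside both sets of counts, 32.5% of all tested genes were called higher and 32.8% lower. The part of either element in the chemokine changes was not tested. A match is a description of the letters, and binding was not measured.

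The 3' UTRs of the 6 genes were rich in ATTTA, the pentamer at the centre of AU-rich elements that RNA-binding proteins use to hasten mRNA decay. CXCL2 held 10 copies in 721 bases and CXCL3 7 in 673. CXCL8 held 9 in 1252 bases and CXCL1 5 in 706. CXCL5 held 11 in 1995 bases and CXCL6 6 in 1119. Their densities, from 5.36 per kilobase in CXCL6 to 13.9 in CXCL2, compare with a median of 1.66 per kilobase over 11555 other tested genes with a 3' UTR of at least 50 bases. The members with the densest pentamers, CXCL2 and CXCL3, had the smallest falls. Of the other genes 1174 held at least 5 per kilobase, with 408 called higher and 422 lower. Their median log2 fold change was -0.01, beside 0.02 for all 11555, of which 4223 were called higher and 4003 lower.

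The 30 bases richest in ATTTA (capitals) are shown for CXCL2, CXCL8, CXCL1 and CXCL3. Not shown are CXCL5, whose richest 30 bases held 2 copies, and CXCL6, whose richest 30 bases held 1. The copies overlap end to end in CXCL2 and CXCL1, partly stand apart and partly overlap in CXCL8, and stand apart in CXCL3. These stretches are from GENCODE transcripts on GRCh38.
CXCL2: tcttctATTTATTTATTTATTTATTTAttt
CXCL8: taacctATTTAttATTTAtgtATTTATTTA
CXCL1: tcttctATTTATTTATTTAttcattagttt
CXCL3: ttctacttATTTAtgtATTTAtttttgaaa

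In an earlier look at these data, genes with the letters CCTTTC in the 3' UTR tended to be lower in shYES1. Of the 6 chemokines CXCL5 held 1 copy and the others none. Among other tested genes, 46.2% of 4672 genes with CCTTTC were called lower (median log2 fold change -0.11), against 26.8% of 6883 without it (median 0.09). The earlier look used these same libraries, so these shares restate it and do not test it. The 3' UTRs of genes with CCTTTC were also longer, with a median of 2248 bases against 596. Its part in the fall of CXCL5 was not tested.

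The genes around the cluster did not all move with it. Of 12 other protein-coding genes within 500000 bases of the chemokines' span, 6 had enough reads to test, with 2 higher, 3 lower and 1 not passing. PF4V1, a platelet factor 4 variant that lies between CXCL6 and CXCL1, had 3, 0 and 2 reads in shYES1, against 28, 27 and 25 in shNT (log2 fold change -4.10, SE 0.437, edgeR adjusted p = 2.01e-11). The growth factor genes AREG and EREG, next to each other beyond CXCL2, went apart: AREG averaged 5.12 ± 0.965 CPM in shYES1 and 16.0 ± 1.02 in shNT (-1.63), and EREG 226 ± 4.93 CPM in shYES1 and 106 ± 2.08 in shNT (1.10). MTHFD2L, a mitochondrial folate enzyme gene beside CXCL2, was lower (-0.61), and ANKRD17 at the far side was higher (0.41). RASSF6, nearest to CXCL8, was at 1.65 ± 0.285 CPM in shYES1 and 1.797 ± 0.124 in shNT (edgeR adjusted p = 0.648). PF4 and PPBP, platelet chemokine genes inside the cluster, had at most 1 read in any library.

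**Figure D4:**
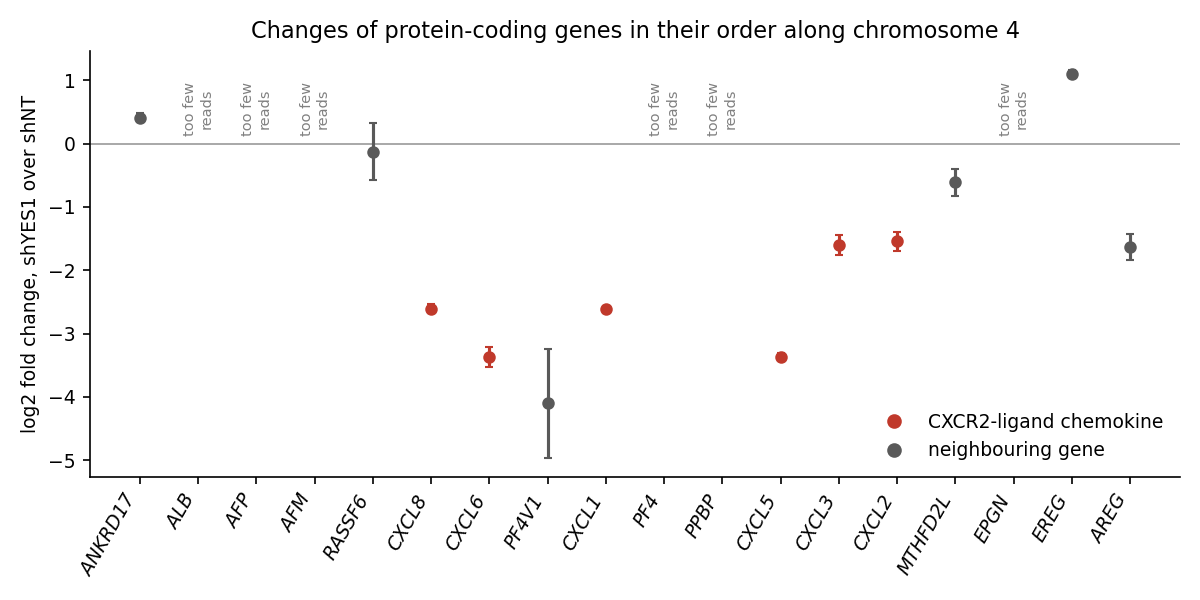
Log2 fold change (shYES1 over shNT, bars are 95% intervals) of the 6 chemokine genes (red) and the 12 other protein-coding genes (grey), spaced evenly in their order along chromosome 4. The 6 chemokines, PF4V1 and AREG lie at -1.54 or below, MTHFD2L at -0.61, RASSF6 near 0, ANKRD17 and EREG above 0, and 6 genes with too few reads have no point.

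The signalling receptors of these chemokines, CXCR1 and CXCR2, had 0 reads in all 6 libraries, and the scavenging receptor ACKR1, found on red cells and venules, averaged 0.698 ± 0.241 CPM in shYES1 and 0.783 ± 0.162 in shNT, too few reads to test. All 4 tested genes of the list of receptors and other ligands fell (median -1.84), PF4V1 among them. CXCR4, the receptor of CXCL12, averaged 2.08 ± 0.573 CPM in shYES1 and 10.5 ± 1.03 in shNT (-2.31), CXCL12 itself 302 ± 6.94 in shYES1 and 785 ± 11.9 in shNT (-1.38), and ACKR3, which scavenges CXCL12, fell by 0.97 on the log2 scale.

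Among 17 chemokines with other receptors, 9 were tested, of which 6 fell, 2 rose and 1 did not pass (median -0.92). CCL20, which draws CCR6-bearing lymphocytes, averaged 3.08 ± 0.374 CPM in shYES1 and 23.1 ± 1.04 in shNT (-2.93). CCL28, a mucosal chemokine, averaged 2.71 ± 0.392 CPM in shYES1 and 14.4 ± 0.0646 in shNT (-2.38). CX3CL1, a membrane-bound chemokine, rose (1.89), with 12.2 ± 0.483 CPM in shYES1 and 3.29 ± 0.269 in shNT, as did CCL5 (0.36).

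Of 23 tested genes listed as inducing cytokines and receptors, 12 fell, 5 rose and 6 did not pass (median -0.23). Whether each acts upstream of the chemokines in these cells was not tested. By estimate the colony-stimulating factor genes CSF3 (-1.77, SE 0.210) and CSF2 (-1.69, SE 0.0645) fell most. CSF3 rests on 16 to 26 reads per shYES1 library. CSF2 averaged 13.7 ± 1.03 CPM in shYES1 and 44.4 ± 1.71 in shNT. Interleukin-6 and interleukin-1 genes are added here after their values were seen. IL6 averaged 55.2 ± 2.89 CPM in shYES1 and 175 ± 6.59 in shNT (-1.68, SE 0.0380), a fall within the SE of those of CSF3 and CSF2. IL1B averaged 79.4 ± 2.59 CPM in shYES1 and 142 ± 0.694 in shNT (-0.84), IL1A fell by 0.79 on the log2 scale, and their receptor IL1R1 averaged 220 ± 3.63 CPM in shYES1 and 538 ± 9.15 in shNT (-1.29). The co-receptor gene IL1RAP rose (0.43), and IL1RN and IL1R2 did not pass. TNFRSF1A, the main receptor of tumour necrosis factor, rose (0.70) and so did the kinase gene IRAK1 (0.44), which overlaps a microRNA gene on its strand. TNF, IL17A and IL17C had too few reads to test.

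Transcription factor genes with known sites in these promoters, and regulators of NF-kB, were mostly lower: 19 of 30 tested fell, 2 rose and 9 did not pass (median -0.27). EGR1, an immediate-early factor, averaged 2.93 ± 0.283 CPM in shYES1 and 9.03 ± 0.889 in shNT (-1.63), and HIF1A, the oxygen-regulated factor, 312 ± 8.76 CPM in shYES1 and 878 ± 17.1 in shNT (-1.49), though another annotated transcript overlaps it. All 5 NF-kB subunit genes were called lower, a group named after their values were seen. NFKB1 was at -0.82, REL at -0.33, RELB at -0.26, NFKB2 at -0.13 and RELA at -0.12. For NFKB2 the groups overlapped, with 74.7, 72.3 and 77.7 CPM in shYES1 and 76.6, 82.6 and 87.4 CPM in shNT. Scaling by library size alone moved the median of all tested genes from -0.00469 to 0.0921, a shift not far below the RELA and NFKB2 changes. REL shares exon bases with an annotated RNA on its strand, where reads can be lost as ambiguous. Of the NF-kB regulators TNFAIP3 (-0.89), NFKBIZ (-0.62) and NFKBIA (-0.34) fell, while NFKBIB, NFKBIE and BCL3 did not pass. IKBKG (0.62) and CHUK (0.21), subunits of the kinase that releases NF-kB, rose. CHUK shares exon bases with ERLIN1, however, and IKBKG has a near-identical pseudogene. IKBKB, another subunit gene of that kinase, fell (-0.23), with 28.6 ± 1.85 CPM in shYES1 and 33.9 ± 1.41 in shNT.

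Genes for mRNA decay factors went both ways, 10 lower, 7 higher and 4 not passing of 21 tested (median -0.00166). CNOT7, a deadenylase of the CCR4-NOT complex, averaged 28.7 ± 0.678 CPM in shYES1 and 76.2 ± 1.11 in shNT (-1.41), and the scaffold gene CNOT1 fell (-0.77). ZFP36, which encodes tristetraprolin, a protein that binds ATTTA and promotes decay, rose (1.06), with 24.4 ± 0.235 CPM in shYES1 and 11.7 ± 0.437 in shNT. Its relative ZFP36L2 rose as well (0.84), with 63.7 ± 2.39 CPM in shYES1 and 35.5 ± 2.92 in shNT. Another listed relative, ZFP36L1, added after its values were seen, fell (-0.52). It was the most abundant of these relatives, with 300 ± 1.83 CPM in shYES1 and 429 ± 12.1 in shNT.

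Genes for proteases that trim chemokines and for heparan sulfate gave 11 lower, 4 higher and 2 not passing of 17 tested (median -0.56). MMP9, a gelatinase that cleaves several CXC chemokines, averaged 0.180 ± 0.0773 CPM in shYES1 and 3.15 ± 0.375 in shNT (-4.17). The collagenase gene MMP1 was lower as well (-3.56), with 0.440 ± 0.172 CPM in shYES1 and 5.29 ± 0.0680 in shNT. Both rest on few reads per shYES1 library, 2 to 3 for MMP9 and 4 to 11 for MMP1. The lysosomal protease gene CTSL (0.54) and SDC2 (0.49), a syndecan that carries heparan sulfate, rose. The other listed syndecans, added after their values were seen, fell. SDC4 averaged 139.6 ± 1.64 CPM in shYES1 and 695 ± 23.8 in shNT (-2.32), and SDC1 was lower (-0.97). As a background for all these counts, 32.8% of tested genes were called lower and 32.5% higher.

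**Figure D5:**
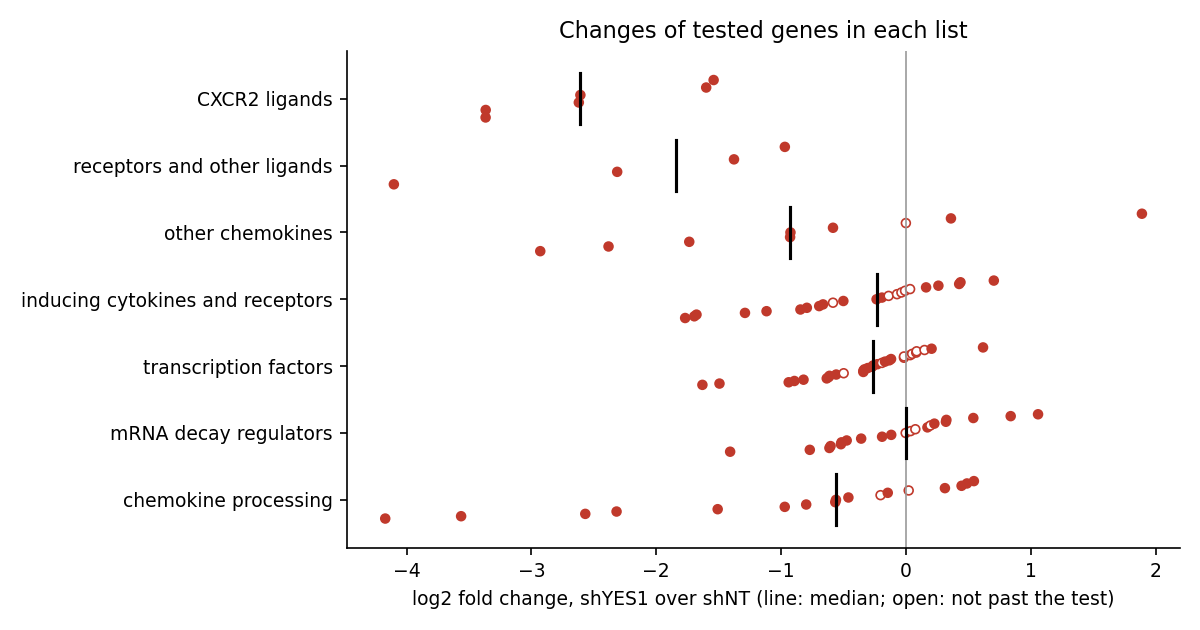
Log2 fold change (x axis, shYES1 over shNT) of the tested genes of each list, 1 point per gene, filled where the edgeR adjusted p is under 0.05, with a line at the list's median. The 6 CXCR2 ligands lie between -3.37 and -1.54, and the medians of the inducing cytokines, transcription factors and mRNA decay regulators lie between -0.27 and -0.00166.

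The genes whose pattern over the 6 libraries was most like the mean of the 6 chemokines were BPNT2, CCNG1, MMP2, ICMT and FSTL1. Likeness was the Euclidean distance between log2 CPM profiles centred on the shNT mean, over 10608 genes averaging 5 CPM or more, and it mainly reflects the size of the group difference. The distance was 0.0730 for BPNT2, a Golgi phosphatase gene, at 34.7 ± 1.23 CPM in shYES1 and 199 ± 2.84 in shNT. It was 0.0839 for the cyclin gene CCNG1, 0.134 for the gelatinase gene MMP2, 0.143 for the protein methyltransferase gene ICMT and 0.219 for FSTL1, a secreted glycoprotein gene. The members' own distances to their mean ran from 0.199 for CXCL8 to 1.70 for CXCL2. None of the 5 lies on chromosome 4.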

How the data were processed

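For each sample the authors deposited raw gene counts, unstranded and by strand, without normalization. CASAVA 1.8.2, STAR 2.5.1b and Trimmomatic 0.35 and the build GRCh38 are named in the submitters' processing notes, and per the labels libraries were stranded and made from poly(A) RNA. No source used here names the annotation release. Reverse-strand counts were used, since 93.5% to 94.0% of stranded gene reads lay there. Entries that name no gene held 19.8% to 20.3% of reads and were left out. Symbols were matched for 42288 of 58219 identifiers, and coordinates and lengths come from GENCODE release 29. In R 4.3.3, edgeR 4.0.16 (filterByExpr with a minimum count of 10 and minimum total of 15, TMM, robust quasi-likelihood test, Benjamini-Hochberg over all 14239 tested genes, threshold 0.05) compared shYES1 with shNT. The SE is the log2 fold change over the root of F, and is approximate. The edgeR fit was tried on simulated counts with known changes. Alternatives were other scalings, DESeq2 1.42.0, limma-voom 3.58.1, other filters, unstranded counts, a sample-number block, a 2-fold minimum and leaving out each library. The coding-transcript length was added after seeing the data. Coding sequences and promoters were aligned globally with Biopython 1.88, and identity is the share of matches among aligned bases, gaps left out. The 6 members and the gene lists were chosen with earlier results of these data known. From each list the text names the called genes averaging 1 CPM or more that rose most (2) and fell most (2). Also named are protein-coding neighbours and the 5 nearest patterns.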

Additional observations from a re-analysis of the deposited data

How the results depend on the processing

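Each of the 6 chemokine genes kept its direction and its call in all 15 alternative fits. Their log2 fold changes ranged from -3.38 to -3.27 for CXCL5, -3.45 to -3.27 for CXCL6, -2.64 to -2.52 for CXCL1, -2.64 to -2.51 for CXCL8, -1.67 to -1.50 for CXCL3 and -1.59 to -1.44 for CXCL2. Against a 2-fold minimum 629 genes were called over the whole table instead of 9299. In that test 4 of the other chemokines, 4 of the inducing cytokine and receptor genes, 2 of the transcription factor genes, 1 of the mRNA decay genes and 5 of the processing genes passed, fewer because the test asks for a larger change. Without each library in turn 8751 to 9078 genes were called, and 12 to 13 pairs of chemokines did not overlap in ratio. Deviations from the group means correlated at 0.0116 to 0.0252 between same-numbered samples, so the numbers were used only as names. This check cannot exclude that same-numbered samples were handled together. With the sample number as a block 9297 genes were called, and all 6 chemokines among them. CXCL6 rests on 48 to 79 reads per shYES1 library, and CXCL2 and CXCL3 on 116 to 206, which limits the precision of these 3 genes.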
